A study of Homo sapiens with 5 samples.

Results

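The ACTH receptor and the genes of cyclic AMP (cAMP) and protein kinase A signalling were examined for nearby binding sites of SF-1 (NR5A1), a nuclear receptor that drives steroidogenic gene expression in the adrenal cortex. The 42 genes were taken by name, whatever their measured values, from the 20163 protein-coding genes of the annotation on 24 chromosomes. They comprised the receptor MC2R with its accessory proteins MRAP and MRAP2, the G protein gene GNAS and the cyclases ADCY1 to ADCY10. The kinase catalytic subunits PRKACA, PRKACB and PRKACG were included and, of the regulatory subunits, only PRKAR1B, PRKAR2A and PRKAR2B. The others were 15 cyclic nucleotide phosphodiesterases, the anchoring protein AKAP1, the transcription factors CREB1, CREM and ATF1, and the coactivators CRTC1, CRTC2 and CRTC3.

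ACTH binds MC2R, which reaches the cell surface with the help of MRAP. The receptor acts through the stimulatory G protein on adenylyl cyclases, cAMP releases the catalytic subunits of protein kinase A from its regulatory subunits, and the kinase phosphorylates CREB family factors while CRTC coactivators enter the nucleus. Phosphodiesterases end the signal by hydrolysing cAMP, and anchoring proteins place the kinase near its substrates. In the adrenal cortex this pathway is the main driver of glucocorticoid synthesis.

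The data were ChIP-seq peak lists, that is, genomic intervals where immunoprecipitated chromatin gave more reads than input DNA. All came from H295R/TR SF-1 cells, which derive from the human adrenocortical tumor line H295R and carry a doxycycline-inducible SF-1 in 1 subclone, so every group shares 1 clonal background. Cells at basal SF-1 dosage were set beside cells in which SF-1 was overexpressed with doxycycline for 3 days, and each dosage was immunoprecipitated with an antibody from Millipore and another from Perseus Proteomics. The basal Millipore, overexpressed Millipore, basal Perseus and overexpressed Perseus lists held 4393, 11910, 6616 and 7453 peaks, each called on 3 pooled libraries against 2 input libraries. A single list stood for each group, so no replicate error could be computed, no test between lists was possible, and read depth is unknown. Intervals below cover counting error only. The lists number their peaks by rank. Peaks in the best-ranked 10% averaged 250 to 316 bp in width and those in the last 10% 104 to 111 bp, so rank 1 was read as the strongest.

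Most of the peaks near these genes belonged to 1 list, and the few that recurred were examined first. Within 100 kb of the 42 starts the lists held 165 peaks, which joined into 137 separate sites where peaks overlapped by at least 1 bp. Of these sites 114 (83.2%) appeared in 1 list, 18 (13.1%) in 2 lists and 5 (3.65%) in 3 lists. Over all sites of the series the shares were 86.2%, 10.3% and 2.78%. The pathway's shares lie near these and are no trait of the pathway. None of the 137 was in all 4 lists, which allows a share of up to 2.19%. Over the whole series 172 of 25693 joined sites, 0.669%, were in all 4 lists. The 5 sites found in 3 lists lay near ATF1, ADCY1, GNAS, PDE4C and PRKAR2B, and sequences of the ADCY1, GNAS, PDE4C and PRKAR2B sites are shown because they are among the most repeatedly detected near the pathway. Each is a stretch of the site, read from hg19 on the plus strand. Capitals mark an SF-1 word, defined as CAAGG followed by T or C and then CA or CG, on either strand.
ADCY1, chr7:45614858-45614977: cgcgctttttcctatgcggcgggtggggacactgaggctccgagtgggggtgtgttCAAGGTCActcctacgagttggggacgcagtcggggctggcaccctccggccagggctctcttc
GNAS, chr20:57393023-57393142: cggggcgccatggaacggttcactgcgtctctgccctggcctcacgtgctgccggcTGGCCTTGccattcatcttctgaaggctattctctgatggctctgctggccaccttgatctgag
PDE4C, chr19:18313951-18314070: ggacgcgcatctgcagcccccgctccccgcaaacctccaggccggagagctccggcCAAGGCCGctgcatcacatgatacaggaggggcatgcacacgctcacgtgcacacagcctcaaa
PRKAR2B, chr7:106620401-106620549: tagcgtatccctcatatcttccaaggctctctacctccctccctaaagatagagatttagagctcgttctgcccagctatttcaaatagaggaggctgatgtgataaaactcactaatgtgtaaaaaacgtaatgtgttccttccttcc
ADCY1 held the letters CAAGGTCA, GNAS held TGGCCTTG, which is CAAGGCCA on the other strand, and PDE4C held CAAGGCCG. The PRKAR2B site held no SF-1 word. The word belongs to the joined site, and neither the basal Perseus peak at ADCY1 nor the overexpressed Millipore peak at PDE4C held it within its own bounds. By the number of lists, 14.0% of the sites in 1 list, 22.2% of those in 2 lists and 80% (4 of 5) of those in 3 lists held a word. The same shares over all sites of the series were 12.1%, 33.1% and 51.8%, with 74.4% for sites in 4 lists. In the pathway the order of these shares was the same, on 18 and 5 sites in the upper classes.

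The receptor complex had few peaks. MC2R encodes the ACTH receptor, a known SF-1 target gene on chromosome 18 with its start at 13915706 on the minus strand (hg19). It had 1 peak within 100 kb, in the basal Millipore list only, 84.9 kb upstream of the start in intergenic sequence. That peak ranked 4112 of 4393, at 93.6% of the list. The nearest peak of the other lists lay 406 kb away in overexpressed Millipore, 263 kb in basal Perseus and 1032 kb in overexpressed Perseus. Neither dosage nor antibody therefore gave a peak within 10 kb of the ACTH receptor gene. The peak sequence and the 250 bases before the MC2R start are shown, the promoter on the minus strand as the gene reads.
MC2R distal peak, chr18:14000601-14000699: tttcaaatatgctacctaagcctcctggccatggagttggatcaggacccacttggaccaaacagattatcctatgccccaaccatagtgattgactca
MC2R promoter, chr18:13915707-13915956: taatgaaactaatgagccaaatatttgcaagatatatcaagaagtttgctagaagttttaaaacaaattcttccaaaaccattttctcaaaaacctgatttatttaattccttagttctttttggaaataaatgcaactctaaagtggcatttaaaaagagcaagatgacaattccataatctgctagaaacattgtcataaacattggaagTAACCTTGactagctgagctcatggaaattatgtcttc
No SF-1 word was found in the distal peak. The promoter held none either, but it held CAAGGTTA on the opposite strand (capitals, TAACCTTG as printed), with its first base 38 bases before the start. Counted from 1 at the first letter, this differs from the word CAAGGTCA by C7T. The letters CAAGGTTA occurred in 101 of 20163 promoters of 300 bases (250 before to 50 after the start), 0.501%. The variant was looked for after the promoter had been read, so it is a description of this sequence alone.

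MRAP, which carries MC2R to the membrane, had 1 peak within 100 kb, in overexpressed Millipore, 65.1 kb downstream of the start in an intron of URB1 and at rank 6405. Its nearest overexpressed Perseus peak lay just outside the window at 101 kb. MRAP2, the paralogue known mainly for its action on other melanocortin receptors, had none in any list. Its nearest peaks lay 174 kb upstream in both Millipore lists, at ranks 673 and 1135, and 194 kb or more away in the Perseus lists. In all 4 lists the 3 receptor complex genes were without a peak within 10 kb. Of all protein-coding genes 35.2% had a peak within 10 kb in any list, so most genes were without one too. Within 100 kb MC2R and MRAP had a peak in some list, beside 79.9% of all genes. On 3 genes these counts lie near the background and are no result about the receptor complex.

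GNAS, which encodes the stimulatory G protein alpha subunit from a locus with many alternative first exons, had 0, 2, 2 and 2 peaks within 100 kb in the basal Millipore, overexpressed Millipore, basal Perseus and overexpressed Perseus lists. The recurrent site shown above, chr20:57392801-57393249, lay 21.7 kb upstream of the outermost start in intergenic sequence. It ranked 140 of 11910 in overexpressed Millipore, 2148 in basal Perseus and 1517 in overexpressed Perseus, and was absent from basal Millipore, whose nearest peak was 320 kb away. Overexpressed Perseus added a peak 173 bp upstream of that outermost start, inside the antisense gene GNAS-AS1, at rank 1838. The gene has 43 coding transcript starts, and the start used for the alpha subunit was not singled out. A peak at the outermost start is therefore not a peak at the start of the alpha subunit transcript. A basal Perseus peak lay 6 kb downstream in an intron of GNAS, and an overexpressed Millipore peak 30 kb downstream ranked 11538. All 6 GNAS peaks had GNAS as their nearest protein-coding start.

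**Figure D1:**
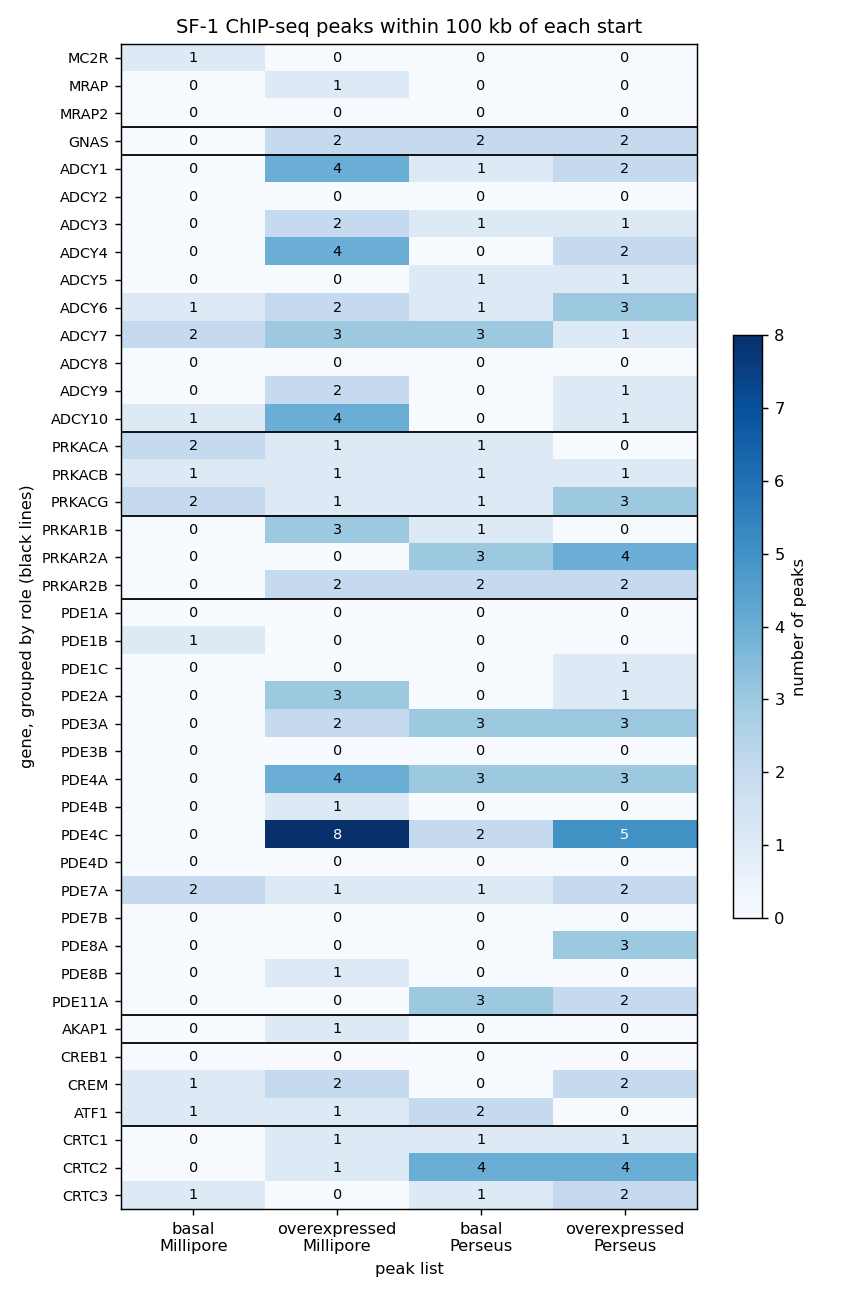
Number of SF-1 ChIP-seq peaks whose centre lay within 100 kb of each of the 42 starts (rows, grouped by role) in each of the 4 lists (columns); colour and digits both give the number. PDE4C had the most, with 0, 8, 2 and 5 peaks, while MRAP2, ADCY2, ADCY8, PDE1A, PDE3B, PDE4D, PDE7B and CREB1 had 0 in every list.

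Among the 10 adenylyl cyclases, which convert ATP to cAMP, 3 had a peak within 100 kb in basal Millipore, 7 in overexpressed Millipore, 5 in basal Perseus and 8 in overexpressed Perseus. Of all protein-coding genes 30.7%, 61.5%, 47.2% and 51.2% did, in the same order, and the counts for each role below are to be read against these shares. ADCY1, a calcium and calmodulin stimulated cyclase, had 0, 4, 1 and 2 peaks. Its peaks just downstream of the start joined into 1 site over 3 lists through the overexpressed Perseus peak, which overlapped the other ones, while those did not overlap each other. The overexpressed Millipore peak there was centred 1361 bp after the start at rank 1424, and the basal Perseus peak 1086 bp after it at rank 5519. The overexpressed Perseus peak, 1236 bp after the start, ranked 726 of 7453. The site lies in the first part of the gene, in an intron, and both overexpressed peaks hold CAAGGTCA, which the basal Perseus peak does not. A second overexpressed Perseus peak at 811 bp fell in a coding exon. No peak of basal Millipore came nearer than 180 kb.

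ADCY7, a cyclase of the ADCY2 and ADCY4 group, was one of 5 genes with a peak within 100 kb in all 4 lists, with 2, 3, 3 and 1 peaks. These peaks were not at 1 place. The 2 basal Millipore peaks lay 63.8 and 64.1 kb downstream, the overexpressed Millipore peaks 0.527, 21.5 and 54.6 kb downstream, and the Perseus lists shared a site 1.55 kb upstream that held TGACCTTG, the reverse complement of CAAGGTCA. ADCY4 had 4 peaks in overexpressed Millipore and 2 in overexpressed Perseus, the nearest 5.10 kb upstream at rank 11202, and 0 in both basal lists. That gene has 13 other protein-coding starts within 100 kb, and for none of its 6 peaks was ADCY4 the nearest start. ADCY6, which is inhibited by calcium, had a peak in every list (1, 2, 1 and 3), yet only 1 of the 7 had ADCY6 as the nearest start. ADCY2 and ADCY8 had no peak within 100 kb of the outermost start. ADCY3, ADCY5, ADCY9 and ADCY10 had 2 to 6 over the 4 lists, none within 10 kb of that start. Counted from any coding start, ADCY3 had 2 overexpressed Millipore peaks within 10 kb and ADCY2 had 1 overexpressed Perseus peak.

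The catalytic subunits of protein kinase A, a set of 3, were each within 100 kb of a peak in basal Millipore, with 5 peaks in all, beside 30.7% of all genes. PRKACA, the main catalytic subunit of the adrenal cortex, had 2, 1, 1 and 0 peaks. The basal Millipore peak 5.10 kb downstream of its start, in an intron, ranked 378 of 4393. It lay 341 bp from the start of another PRKACA coding transcript and 512 bp from the start of the neighbouring gene SMIM46. It held no SF-1 word and overlapped no peak of another list. The basal Perseus peak lay on the other side, 9.10 kb upstream in an intron of ASF1B. With overexpressed SF-1 the nearest peak was 17.1 kb away for Millipore and 275 kb away for Perseus. PRKACB had exactly 1 peak in each list, and these lay at 4 different places from 78.8 kb upstream to 25.6 kb downstream. PRKACG, an intronless copy known from testis, had 2, 1, 1 and 3 peaks, of which 1, an overexpressed Perseus peak 2.08 kb downstream, was within 10 kb.

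Regulatory subunits hold the kinase inactive until cAMP binds. The 3 included here, which are not the whole family, were without a peak within 100 kb in basal Millipore (0 of 3, beside 30.7% of all genes). PRKAR2A had 0, 0, 3 and 4 peaks, so within 100 kb of its outermost start it was listed with 1 antibody only. The nearest peak of each Millipore list lay 119 kb upstream. Counted from any coding start, each Millipore list had 1 peak within 100 kb. The Perseus lists shared 3 sites near it, and 1 of them was centred 482 bp downstream of the start in a coding exon, at rank 4194 in basal and 2174 in overexpressed Perseus. The others lay 36.3 kb downstream in an intron and 71.0 kb upstream in an untranslated exon of ARIH2. PRKAR2B had 0, 2, 2 and 2 peaks. Its recurrent intergenic site lay 64.7 kb upstream and ranked 523, 2429 and 4724 in overexpressed Millipore, basal Perseus and overexpressed Perseus. PRKAR1B had 0, 3, 1 and 0 peaks, none within 10 kb.

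Of the 15 phosphodiesterases, basal Millipore had a peak within 100 kb of 2, overexpressed Millipore of 7, basal Perseus of 5 and overexpressed Perseus of 8, beside 30.7%, 61.5%, 47.2% and 51.2% of all genes. PDE4C, a cAMP-specific enzyme, had the most peaks of the 42 genes, 15 over the 4 lists, a total met or passed by 4.48% of all protein-coding genes. It has 11 other protein-coding starts within 100 kb, and PDE4C was the nearest start for 4 of the 15 peaks. A single peak was within 10 kb of the outermost start, 910 bp downstream in overexpressed Millipore at rank 11544. An overexpressed Millipore peak at rank 1972 and an overexpressed Perseus peak at rank 2472 lay 206 and 606 bp from the start of another PDE4C coding transcript. Counted from any coding start, 3 overexpressed Millipore peaks and 1 overexpressed Perseus peak were within 10 kb. The site in 3 lists lay 45 kb downstream in an intron of RAB3A, at ranks 3417, 4140 and 2527. PDE4A, of the same family, had 0, 4, 3 and 3 peaks, and 1 of the 10 had PDE4A as its nearest start. That peak, in overexpressed Perseus at rank 1354, was centred 249 bp upstream of PDE4A and inside an intron of CDC37. Both Perseus lists also shared a PDE4A intron site 7.90 kb downstream.

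PDE3A, an enzyme inhibited by cyclic GMP, had 0, 2, 3 and 3 peaks in a stretch with no other protein-coding start within 100 kb. The Perseus lists shared a peak 346 bp upstream of its start, within the antisense gene PDE3A-AS1. It ranked 359 of 6616 at basal dosage and 847 of 7453 when SF-1 was overexpressed, placing it in the first 11.4% of both lists. The Millipore peaks of PDE3A lay 63.1 and 63.8 kb upstream, both in the overexpressed list. PDE7A, a high-affinity cAMP-specific enzyme, had 2, 1, 1 and 2 peaks. Both overexpressed lists had one in an intron, 82 bp downstream of the start for Millipore and 257 bp for Perseus, and these did not overlap each other. The basal lists had no PDE7A peak nearer than 16.7 kb.

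PDE8A and PDE8B, cAMP-specific enzymes known for activity in steroidogenic cells, each had peaks at the start in a single list. PDE8A had 3 peaks, all in overexpressed Perseus, with centres 204 and 954 bp downstream at ranks 1787 and 479 and the remaining one farther away. PDE8B had 1, in overexpressed Millipore 824 bp upstream at rank 9861. PDE11A, which hydrolyses cAMP and cyclic GMP, had 0, 0, 3 and 2 peaks. The one within 10 kb of the outermost start, 4.08 kb upstream in overexpressed Perseus, was centred 1 bp from the start of RBM45. PDE1A, PDE3B, PDE4D and PDE7B had no peak within 100 kb of the outermost start, and PDE1B, PDE1C, PDE2A and PDE4B had 1 to 4 over the 4 lists, none within 10 kb.

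ATF1, a CREB family factor, had the site nearest to a start among those in 3 lists. It had 1, 1, 2 and 0 peaks. Of these, 3 were centred 57 bp downstream of the start, at rank 2903 in basal Millipore, 11348 in overexpressed Millipore and 2752 in basal Perseus. The nearest overexpressed Perseus peak was 168 kb upstream. Of the 42 promoters of 300 bases, 1 held an SF-1 word (2.38%, 95% Wilson interval 0.422 to 12.3%), beside 829 of 20163 promoters (4.11%). CREM, which also encodes the cAMP-inducible repressor ICER, had 1, 2, 0 and 2 peaks, none within 10 kb of the outermost start. The gene has 30 coding transcript starts, and the start used for ICER was not singled out. A peak in both Millipore lists lay 5400 bp from another CREM coding start, and an overexpressed Perseus peak 4975 bp from one. CREB1, the factor for which the family is named, had none. Its nearest peak was 199 kb upstream, in overexpressed Perseus.

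CRTC coactivators bind CREB and carry the cAMP response to its target genes. CRTC2 had 0, 1, 4 and 4 peaks and CRTC3 had 1, 0, 1 and 2, and each was within 10 kb of its start in 3 lists. Sequences are shown for CRTC3, CRTC2 and ADCY7, chosen after their values were seen, as sites close to a start that hold an SF-1 word; strand and capitals are as above.
CRTC3, chr15:91074151-91074249: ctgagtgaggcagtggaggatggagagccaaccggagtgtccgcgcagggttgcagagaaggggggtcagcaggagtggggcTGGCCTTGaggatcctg
CRTC2, chr1:153928885-153929004: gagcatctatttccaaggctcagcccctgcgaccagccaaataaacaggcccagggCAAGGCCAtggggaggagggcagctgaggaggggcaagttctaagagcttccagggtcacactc
ADCY7, chr16:50278401-50278520: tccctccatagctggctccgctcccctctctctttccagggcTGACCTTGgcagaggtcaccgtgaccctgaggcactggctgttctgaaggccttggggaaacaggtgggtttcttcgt
For CRTC3 the 3 lists gave 3 separate sites. Basal Millipore had a peak 1045 bp downstream with TGGCCTTG, near the end of its list at rank 4134. Basal Perseus had one 170 bp downstream in a coding exon at rank 1398, without an SF-1 word. Overexpressed Perseus had one 705 bp upstream at rank 2548, which also held an SF-1 word. CRTC2 had a peak at its start in overexpressed Millipore (9 bp upstream, rank 9689) that overlapped one in basal Perseus (34 bp upstream, rank 696 of 6616). In overexpressed Perseus the start peak was absent, and the peak at rank 366 lay 2.17 kb downstream in an intron with CAAGGCCA. A further shared Perseus site, in DENND4B 12.1 kb downstream of the CRTC2 start, ranked 235 and 989. CRTC1 had 0, 1, 1 and 1 peaks, none within 10 kb. AKAP1, which anchors the kinase at mitochondria, had 1 peak, in overexpressed Millipore 47.8 kb downstream of its start.

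**Figure D2:**
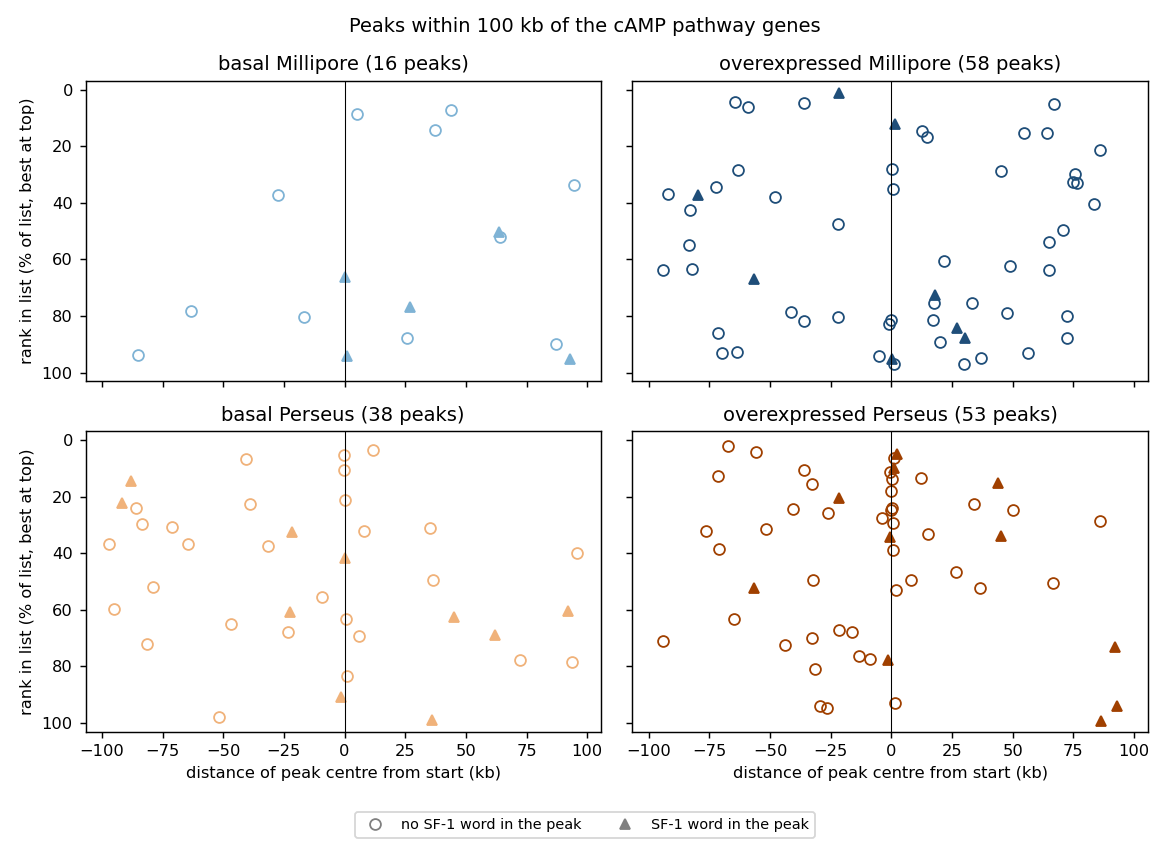
Distance of each peak centre from the start of its gene (x axis, kb, negative upstream) against its rank as a percent of the list (y axis, best at top), with 1 panel per list and filled triangles for peaks holding an SF-1 word. Peaks of basal Millipore had a median rank of 71.4% of the list and those of overexpressed Perseus 33.9%.

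By rank the peaks near these genes stood differently in the 4 lists. The median rank, as a percent of the list, was 71.4% in basal Millipore, 61.5% in overexpressed Millipore, 45.5% in basal Perseus and 33.9% in overexpressed Perseus. A whole list has 50% by construction, and it includes peaks far from any gene. The median for peaks within 100 kb of all gene starts was not computed, so these values are no trait of the pathway. Of the peaks, 3 of 16, 11 of 58, 9 of 38 and 19 of 53 were in the best-ranked 25%. An SF-1 word was present in 31.2% (95% Wilson interval 14.2 to 55.6%), 13.8% (7.16 to 24.9%), 26.3% (15.0 to 42%) and 20.8% (12.0 to 33.5%) of the peaks, beside 17.5%, 13.8%, 23.9% and 20.4% of all peaks of the lists. Every interval held the value of its whole list. A word for NRSF/REST, a transcriptional repressor studied beside SF-1 in these cells, was looked for as TTCAGCACC and GGACAGCGC separated by 2 free bases, with up to 4 mismatches. None of the 165 peaks held it, which allows a share of up to 1.82%, beside 0.348 to 1.25% of all peaks per list.

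Peaks near the pathway overlapped another list in 2 of 16, 13 of 58, 17 of 38 and 19 of 53 cases. Those shares were 12.5% (3.50 to 36.0%), 22.4% (13.6 to 34.7%), 44.7% (30.1 to 60.3%) and 35.8% (24.3 to 49.3%), beside 20.9%, 16.6%, 37.7% and 37.9% of all peaks. Between dosages the Millipore lists shared 2 of these peaks, at ATF1 and CREM, and the Perseus lists 14. Between antibodies, 1 was shared at basal dosage, at ATF1, and 9 with overexpressed SF-1. Introns held 91 of the 165 peaks, intergenic sequence 37, coding exons 16, untranslated exons 15 and noncoding genes 6. Within 10 kb of a start there were 38, and within 1 kb 21. For 87 of the 165 peaks a gene of the pathway was the nearest protein-coding start. These counts of places and nearest starts have no share over all peaks beside them, so they are no trait of the pathway.

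As a set, and counted from the outermost start, the pathway genes were within 100 kb of peaks about as often as protein-coding genes in general. At 100 kb, 12 of 42 had a peak in basal Millipore (28.6%, 95% Wilson interval 17.2 to 43.6%), beside 30.7% of all genes. In overexpressed Millipore 26 did (61.9%, 46.8 to 75%), beside 61.5%. Basal Perseus gave 21 (50%, 35.5 to 64.5%) beside 47.2%, and overexpressed Perseus 25 (59.5%, 44.5 to 73.0%) beside 51.2%. Over any of the 4 lists the count was 34 (81.0%, 66.7 to 90.0%) beside 79.9%, and for all 4 lists it was 5 (ADCY6, ADCY7, PRKACB, PRKACG and PDE7A; 11.9%, 5.19 to 25%) beside 15.1%. These shares lie near the background and are no result about the pathway. The picture depends on the choice of start. Counting from the starts of all coding transcripts gave 20 genes in basal Millipore (47.6%, beside 32.8% of all genes), 32 in overexpressed Millipore (76.2%, beside 64.0%), 23 in basal Perseus (54.8%, beside 49.2%) and 28 in overexpressed Perseus (66.7%, beside 53.4%). Under this setting the pathway's share was above that of all genes in all 4 lists at 1, 10 and 100 kb, and at 10 kb in overexpressed Perseus it was 38.1% beside 19.8%. The pathway genes had a median of 4.5 such starts, the outermost one included, beside 3 for all genes, and the part of this in the shares was not tested.

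Closer to the start the counts were small. Within 10 kb, 3 genes had a peak in basal Millipore (7.14%, 2.46 to 19.0%), beside 4.38% of all genes, and 8 in overexpressed Millipore (19.0%, 9.98 to 33.3%), beside 19.0%. In basal Perseus there were 10 (23.8%, 13.5 to 38.5%), beside 15.5%. In overexpressed Perseus there were 12 (28.6%, 17.2 to 43.6%), beside 17.1%. Within 1 kb the counts were 1 (2.38%), 6 (14.3%), 5 (11.9%) and 8 (19.0%), beside 1.01%, 8.19%, 9.56% and 10.5%. Any list gave 13 genes within 1 kb (31.0%, 19.1 to 46.0%), beside 19.8%, and 17 within 10 kb (40.5%, 27 to 55.5%), beside 35.2%. In 3 or more lists a peak lay within 10 kb of the outermost start of 5 genes, ADCY1, ADCY7, ATF1, CRTC2 and CRTC3 (11.9%, 5.19 to 25%), beside 5.41%. No gene of the pathway had a peak within 10 kb of that start in all 4 lists, which allows a share of up to 7.14%, beside 1.03%. Counted from any coding start, PDE11A had 2, 1, 1 and 3 peaks within 10 kb. In the 12 comparisons of 1 list and 1 window, all counted from the outermost start, the Wilson interval held the share of all genes in 11, the exception being overexpressed Perseus at 10 kb.

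Promoter GC was higher for these genes than for genes in general, with a median of 65.4% against 59.2% over 1000 bp centred on the start. When the share of all genes was weighted to the GC of the 42 promoters, it came to 4.59%, 21.7%, 17.2% and 19.3% at 10 kb, and the overexpressed Perseus interval from 17.2 to 43.6% then held it. At 1 kb the weighted shares were 0.932%, 9.33%, 11.2% and 12.5%, and at 100 kb 32.1%, 64.8%, 49.2% and 53.5%. The genes were also longer than others, with a median of 104 kb against 27.2 kb, and had fewer neighbours, with a median of 1 other protein-coding start within 100 kb against 3. The part of GC, length and neighbours in the counts was not tested beyond this weighting.

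**Figure D3:**
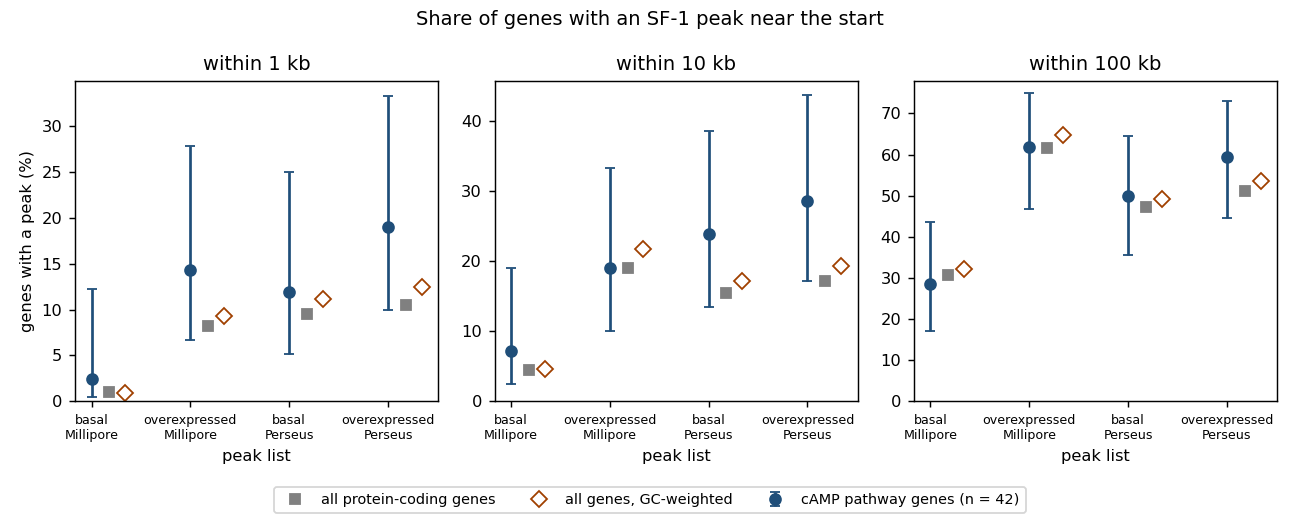
Percent of genes with a peak centre within 1, 10 and 100 kb of the start (panels) in each list. Circles with bars give the 42 pathway genes with 95% Wilson intervals, squares all 20163 protein-coding genes, and diamonds all genes weighted to the promoter GC of the 42, and at 10 kb in overexpressed Perseus 28.6% stands beside 17.1% and 19.3%.

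SF-1 dosage was compared within each antibody. With Millipore, 3 genes had a peak within 100 kb at basal dosage only (MC2R, PDE1B and CRTC3; 7.14%, beside 7.32% of all genes), 17 with overexpressed SF-1 only (40.5%, beside 38.2%) and 9 at both dosages (21.4%, beside 23.3%). With Perseus, 3 were at basal dosage only (PRKACA, PRKAR1B and ATF1; 7.14%, beside 11.4%), 7 with overexpressed SF-1 only (16.7%, beside 15.4%) and 18 at both (42.9%, beside 35.8%). No gene was in the basal-only class with both antibodies, which allows a share of up to 7.14%, beside 1.28% of all genes. ADCY4, ADCY9 and PDE2A (7.14%, beside 7.32%) were in the overexpressed-only class with both. The number of peaks rose from 16 (exact Poisson interval 9.15 to 26.0) to 58 (44 to 75) with Millipore and from 38 (26.9 to 52.2) to 53 (39.7 to 69.3) with Perseus. With every list cut to the length of the shortest, the peaks numbered 16 and 20 with Millipore and 28 and 37 with Perseus. Per gene the full, uncut lists gave 0.381, 1.38, 0.905 and 1.26 peaks, beside 0.421, 1.71, 0.945 and 1.12 for all genes. Both of these series follow the order of the full list lengths. When the antibodies were compared at 1 dosage, 8 genes had a peak within 100 kb with both at basal dosage (19.0%, beside 20.1%) and 19 with both when SF-1 was overexpressed (45.2%, beside 40.7%). Dosage and the depth or list length of each pool cannot be told apart here.

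Inside gene bodies, which were counted after the other values were seen, some long genes carried sites that a window around the outermost start does not reach. Other long genes had few body peaks, with 2 each in PDE1C (677 kb) and PDE4B (582 kb) and 0 in PDE1A (383 kb). PDE4D, a cAMP-specific phosphodiesterase of 1553 kb, had no peak within 100 kb of its outermost start but 14 in its body, at 11 sites. Over the 4 lists together that is 9.01 peaks per Mb, below the 13.7 per Mb of all protein-coding genes. PDE4D has 13 coding starts, and counted from any of them it had 4, 2, 4 and 4 peaks within 100 kb. Both Perseus lists held a peak within 1 kb of one of these starts, at 51 and 101 bp. Of the 11 sites 3 were in 2 lists, and the best ranked, 1458 kb downstream of the start, was at rank 1024 in basal Perseus and 642 in overexpressed Perseus. PDE11A, of 485 kb, had 10 peaks (20.6 per Mb) at 6 sites, of which 3 were in more than 1 list. Its site 423 kb downstream of the start was in 3 lists, at rank 119 of 4393 in basal Millipore, 550 in basal Perseus and 1423 in overexpressed Perseus. The peaks of this site lay 9312 to 9362 bp from another PDE11A coding start. The middle 120 bases of this site are shown as the best-ranked basal Millipore peak in a gene of the pathway, plus strand, with no SF-1 word in the whole peak.
PDE11A, chr2:178549640-178549759: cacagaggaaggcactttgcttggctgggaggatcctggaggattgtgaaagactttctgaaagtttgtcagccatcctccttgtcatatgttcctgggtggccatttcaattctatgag
A PDE11A site 228 kb downstream held an SF-1 word and ranked 581 in overexpressed Millipore and 2167 in overexpressed Perseus. Its peaks lay 8640 and 8740 bp from another PDE11A coding start. A site 234 kb downstream ranked 589 in basal Millipore and 425 in overexpressed Perseus. ADCY1 had 8 body peaks and PDE3A 7. Summed over the 42 genes (8.04 Mb), body peaks numbered 21, 35, 24 and 26, or 2.61, 4.35, 2.98 and 3.23 per Mb, beside 1.73, 5.51, 2.99 and 3.51 per Mb over all protein-coding genes.

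**Figure D4:**
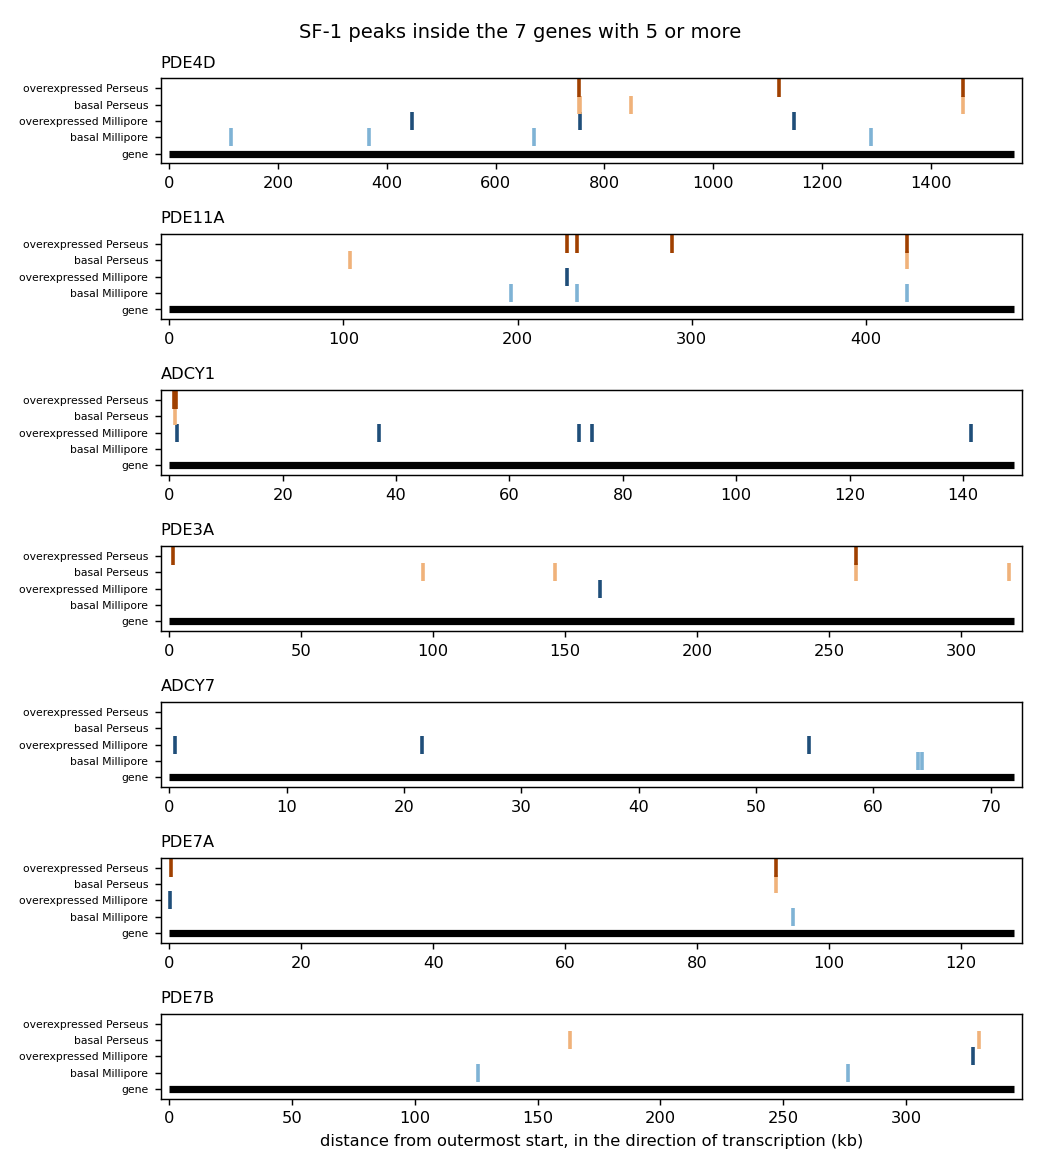
Position of SF-1 peaks inside the 7 genes with 5 or more body peaks, as distance from the outermost start in kb along the direction of transcription (black bar, the gene), with 1 row of ticks per list. Ticks of different lists line up at 423 kb in PDE11A, at 1458 kb in PDE4D and just after the start in ADCY1.

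The cAMP response element TGACGTCA, which CREB family proteins bind, was searched on both strands in the promoters of 300 bases. PDE4A, where it spans the start, and PDE7B, where it begins 155 bases before the start, held it. That is 4.76% of the 42 genes (95% Wilson interval 1.32 to 15.8%), beside 2.29% of all promoters. The half-element TGACG, which also counts these, was in 8 (19.0%, 9.98 to 33.3%) beside 26.7%. The SF-1 half-site AGGTCA was in 5 (11.9%, 5.19 to 25%) beside 13.3%.

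Other genes of the pathway, a list of 35, were counted in the same way. They include cAMP-activated exchange factors, kinase inhibitors, further anchoring proteins and inhibitory G proteins. Arrestins, the other melanocortin receptors and the NR4A nuclear receptors are also among them. Within 100 kb, 11, 23, 19 and 18 of the 35 had a peak (31.4%, 65.7%, 54.3% and 51.4%), beside 30.7%, 61.5%, 47.2% and 51.2% of all genes. Within 10 kb 1, 6, 7 and 11 did (2.86%, 17.1%, 20% and 31.4%), beside 4.38%, 19.0%, 15.5% and 17.1%. AKAP10, an anchoring protein picked after its values were seen, had 2 peaks within 10 kb in every list. Of all genes 1.03% had a peak within 10 kb in all 4 lists. GNAI2, an inhibitory G protein, had 0, 9, 0 and 4 peaks within 100 kb, a total met or passed by 6.34% of all genes. NR4A1, a nuclear receptor induced by ACTH, had 1, 5, 3 and 3, a total met or passed by 7.86%. GNAI2 has 10 other protein-coding starts within 100 kb and NR4A1 has 4. Most of the overexpressed Millipore peaks of both genes had another gene as their nearest start. GNAI2 and NR4A1 were also picked after their values were seen.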

How the data were processed

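SF-1 ChIP-seq was measured in H295R/TR SF-1 cells at basal and overexpressed SF-1 dosage with 2 antibodies. The authors mapped reads to hg19 with ELAND (CASAVA 1.6 per the submitters' processing notes) and called peaks with CisGenome on 3 pooled libraries per group against 2 input libraries. The deposited files give each peak's interval, its rank and a score that is the same for every peak and was not used. The quantity ranked on is not given in the sources used here. No read counts were used here, so the depth is unknown, and the input sample was not analysed here.

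Peaks were counted by their centre within 1, 10 and 100 kb of a gene start, the most upstream start annotated for each protein-coding gene (GENCODE version 44 lifted to GRCh37, the build of the files). Rank is printed as deposited. Promoters and sites were read from the GRCh37 sequence. Some site sequences are not reported here. Shares have 95% Wilson intervals and sums exact Poisson intervals, which cover counting error only. The share of all genes was also weighted to the 42 genes over 10 equal parts of promoter GC, in place of matched random genes, which were not drawn. A count of 0 was given the share that 3 counts would make. No test was run, since each group is 1 list. The naming rule took MC2R, MRAP, MRAP2, GNAS, every gene with a peak within 10 kb in any list, and the 5 with the most peaks within 100 kb, and the other genes named were chosen after their values were seen. Genes, lists, motifs and windows were chosen with earlier results of these data known. Alternatives changed the starts, the list length or rank, the counting of a peak, the GC bins, the overlap rule and the words. Counting and word search were tested on simulated data. Python 3.11.15, numpy 2.4.6, scipy 1.17.1, pysam 0.24.0, samtools 1.23.1 and matplotlib 3.10.9 were used.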

Additional observations from a re-analysis of the deposited data

Results flagged for a closer look

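For 4 of the genes taken by the naming rule, and for 1 role, the number of peaks within 100 kb moved in opposite directions with SF-1 dosage under the 2 antibodies. With a single list per group the difference was not tested in any of them. ADCY7 went from 2 to 3 peaks with Millipore and from 3 to 1 with Perseus. PRKACG went from 2 to 1 with Millipore and from 1 to 3 with Perseus, and PDE7A from 2 to 1 and from 1 to 2. CRTC3 went from 1 to 0 with Millipore and from 1 to 2 with Perseus. The 3 kinase catalytic genes together went from 5 to 3 with Millipore and from 3 to 4 with Perseus. Over the whole pathway 5 of 42 genes (11.9%) moved in opposite directions, PRKAR1B, from 0 to 3 with Millipore and from 1 to 0 with Perseus, being the other one, beside 2917 of 20163 protein-coding genes (14.5%).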

How the results depend on the processing

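No paired analysis was possible because each group is a single list made from pooled libraries, and for the same reason no library could be left out. Of 136 recomputed values 114 stayed within 1.5 times, or within the counting interval, of the reported one. None moved without peaks near long runs of unknown bases, with peaks within 500 bp merged, with other GC bins, another overlap rule, the half-site or wider peaks. Starts of all coding transcripts moved basal Millipore to 3, 6 and 20 genes at 1, 10 and 100 kb and to 30 peaks, and overexpressed Millipore at 10 kb to 14 genes. Any base of the peak in the window moved basal Millipore at 1 kb to 2 genes.

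The better-ranked 50% of each list holds fewer peaks by construction. It left 0, 1 and 4 genes and 5 peaks in basal Millipore, 2, 3 and 16 genes and 26 peaks in overexpressed Millipore, 5 genes at 10 kb, 12 at 100 kb and 20 peaks in basal Perseus, and 33 peaks in overexpressed Perseus. Cutting lists to the shortest left 2, 3 and 15 genes and 20 peaks in overexpressed Millipore. The gene body joined to the 100 kb window, an alternative chosen after seeing the data, gave 18, 30, 24 and 27 genes. The sign of the pathway's share minus that of all genes was kept in 23 of 24 recomputations at 1 kb, 21 of 24 at 10 kb and 21 of 24 at 100 kb. At 10 kb in overexpressed Perseus it was 11.5 points, and 11.4 to 18.3 points under these recomputations, none of which weighted by GC. The GC-weighted share there was 19.3%, closer to the pathway's 28.6% than the unweighted 17.1%. The interval of 17.2 to 43.6% held the weighted share.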

Other observations

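ADCY8, a calcium-stimulated cyclase without a peak within 100 kb, had its nearest peak 313 kb downstream of the start in 3 of the 4 lists, at rank 787 in basal Millipore, 1073 in overexpressed Millipore and 7152 in overexpressed Perseus. MRAP2 likewise had its nearest Millipore peaks at 174 kb in both dosages, at ranks 673 and 1135. PDE3B stood farthest from any peak, with the nearest 1814 kb away in overexpressed Millipore and 3237 kb or more away in the other lists. These values were picked after they were seen and belong to no comparison.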
